A study of Sus scrofa with 17 samples.

Results

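The genes described here are 31 type I interferon response genes of the pig (Sus scrofa), measured by RNA sequencing of heart tissue from 17 animals. They come from a list of 32 symbols. Of these, 31 stood on 1 row each of the gene count table, and DDX58, an older name of RIGI, stood on none. All 31 rows passed the filter on low counts, which kept 15884 of 35670 genes. The animals were pigs with pressure overload of the right ventricle, and the tissue was right ventricular muscle. Mononuclear cells from umbilical cord blood had been given in several doses to 7 animals (multidose) and in 1 dose to 5 (single dose), while 5 animals received vehicle (vehicle control). All 3 groups carried the overload, and no library from an unloaded heart was analysed here. Each library is a different animal, according to the series text. The amounts of cells, the harvest times, sex, weight and batch are not given per library in the sources used here.

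The library totals ran from 21754800 to 48330971 counts in the multidose group, from 22137165 to 53317361 in the single dose group and from 48311031 to 61144663 in the controls. Levels are given as CPM, a gene's count relative to the library total, scaled with TMM factors, which correct for differences in library composition. Of 9 markers of ventricular cardiomyocytes, 9 were present, and their summed level was between 46700 and 85750 CPM in every library. The library names of multidose 1 to 4 and of single dose 1 begin with M1, and those of the other 12 libraries begin with M8 or M9. All names end in _R except those of multidose 1, 2, 3 and 5, single dose 1 and vehicle control 3. No comparison by this suffix was made. What these names mean is not given. Totals were 21754800 to 40969168 counts under M1 names and 40621934 to 61144663 under the others, so name and depth overlap only slightly. In the interferon genes multidose 5 (library M823) and single dose 1 stood apart from the rest, and results for groups are given with and without them.

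Type I interferons are released by cells that detect viral or misplaced nucleic acid. They bind the receptor IFNAR, whose kinases JAK1 and TYK2 phosphorylate STAT2. With IRF9 it forms part of a complex that enters the nucleus and switches on the interferon-stimulated genes, among them antiviral effectors, RNA sensors and the factors of the pathway itself. Cardiomyocytes, fibroblasts, endothelial cells and macrophages of the heart can all respond. In whole tissue, a change in the number of cells of a responding type and in the RNA per cell cannot be told apart.

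The 31 genes lie on 12 chromosomes of the build Sscrofa11.1, by RefSeq positions matched on symbol. Several are neighbours. IFIT2, IFIT3, IFIT1 and IFIT5 follow each other on chromosome 14, between 101193421 and 101266105. OAS2 (38827667 to 38847697) and OAS1 (38851083 to 38867427) are adjacent on the same chromosome, MX2 and MX1 on chromosome 13, RSAD2 and CMPK2 on chromosome 3, and IFI44 and IFI44L on chromosome 6. DTX3L and PARP9 on chromosome 13 overlap by 395 bases, and their counts are uncertain because the strand setting of the counting is not given in the sources used here. Reads of the similar IFIT, OAS and MX genes may also have been split between family members.

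One multidose animal carried the strongest interferon gene expression of the series. Multidose 5 was the highest of the 17 libraries for 30 of the 31 genes, against 12.7% of all genes tested. The exception was IFI44, for which it came second. All 31 genes were at least 1 log2 unit (a fold of 2) above the median of the other 16 libraries, which held for 3.92% of all genes, and 13 were at least 3 log2 units above it (0.252% of all genes). For 16 of the 31, multidose 5 was at least 1 log2 unit above even the highest other library (0.478% of all genes). The median difference was 2.41 log2 units over the 31 genes and -0.000685 over all genes tested. Multidose 5 also deviated downward: 8.44% of all genes, and 0 of the 31, lay at least 1 log2 unit below the median. Its TMM factor, 0.8611, was the lowest of the 17 libraries. As a single animal, multidose 5 gives values with no replicate check.

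**Figure D1:**
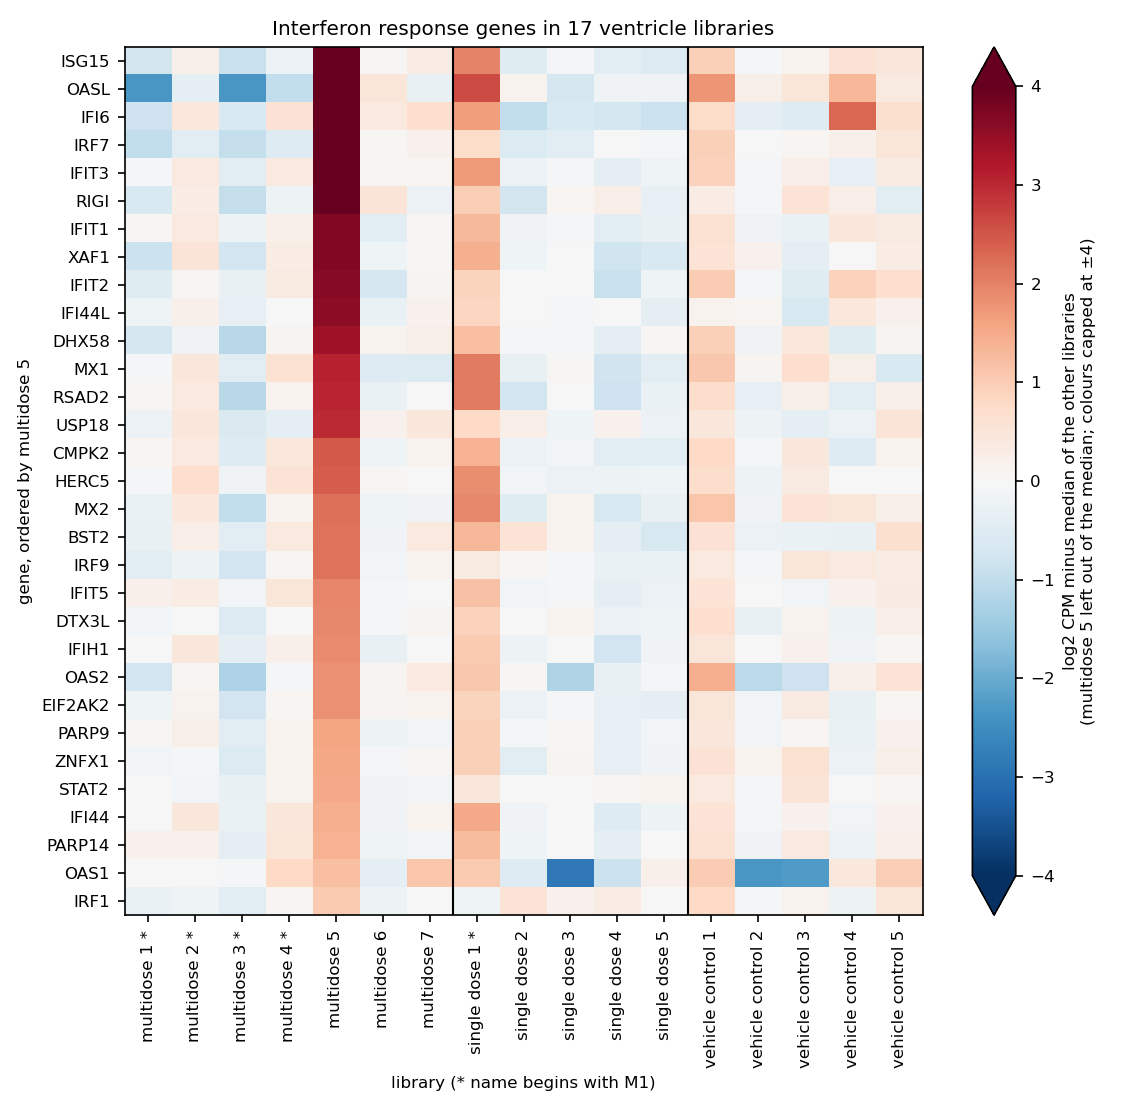
Each cell is the log2 CPM of 1 gene (rows, ordered by multidose 5) in 1 library (columns, grouped as multidose, single dose and vehicle control) minus the median of the other libraries, with multidose 5 left out of that median. Multidose 5 is red throughout, from 1.06 (IRF1) to 6.12 (ISG15), single dose 1 is red for most genes, and multidose 3 is mostly blue.

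The difference was largest for ISG15, a small protein that is attached to other proteins much like ubiquitin (ENSSSCG00000040575, chromosome 6, 63363201 to 63364211). ISG15 stood at 1632 CPM in multidose 5, and the other 6 multidose libraries held 12.98 to 28.1 CPM (mean 21.0 ± 6.27, SD, n = 6). In the single dose group ISG15 was at 91.6, 17.1, 22.9, 17.4 and 16.4 CPM in animals 1 to 5, and in the controls at 44.5, 22.9, 25.4, 34.0 and 31.5 CPM. Multidose 5 was thus 69.7-fold above the median of the other libraries, and single dose 1 was the next highest library, 3.996-fold above the median of the remaining 15. USP18, which removes ISG15 from its targets and dampens receptor signalling, was at 70.7 CPM in multidose 5 against 6.25 to 14.4 CPM elsewhere. HERC5, the ligase that attaches ISG15, was at 44.0 CPM in multidose 5 and 29.8 CPM in single dose 1, and between 6.96 and 13.3 CPM in the other 15.

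The MX proteins are dynamin-like GTPases that trap viral components. MX1 (chromosome 13, 204843049 to 204868927) was at 180.2 CPM in multidose 5 and 14.9 to 31.6 CPM in the other 6 multidose libraries. In the single dose group MX1 was at 88.8, 17.8, 21.8, 12.5 and 16.2 CPM, and in the controls at 44.5, 22.3, 33.0, 24.4 and 14.4 CPM. The 2 highest libraries were the same as for ISG15, but single dose 1 was nearer to multidose 5 (within 1.02 log2 units, against 4.16 for ISG15). For MX2 the gap between these libraries was 0.38 log2 units, at 146.4 and 112.7 CPM.

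The IFIT proteins bind foreign RNA and block its translation. IFIT1 was at 467.9 CPM in multidose 5 and 27.3 to 46.0 CPM in the other 6 multidose libraries. It was at 87.1, 32.8, 35.1, 26.9 and 29.7 CPM in single dose 1 to 5 and at 53.3, 33.1, 30.4, 47.9 and 44.8 CPM in the controls. Apart from the 2 high libraries, the 3 groups overlapped. The 4 IFIT genes differed in size although they are neighbours: multidose 5 was above the median by 4.18 log2 units for IFIT3, 3.71 for IFIT1, 3.65 for IFIT2 and 1.94 for IFIT5. IFIT2 was at 127.1 CPM in multidose 5, at 18.6 in single dose 1, and at 20.2 and 19.3 CPM in vehicle control 1 and 4, with the other 13 libraries at or below 15.9 CPM.

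Viperin, the product of RSAD2, makes a nucleotide that stops viral polymerases, and CMPK2 is the kinase that supplies its substrate. RSAD2 (chromosome 3, 128880853 to 128897809) was at 251.9 CPM in multidose 5 and 14.1 to 39.3 CPM in the other 6 multidose libraries. It was at 126.7, 17.7, 30.3, 17.2 and 25.4 CPM in the single dose group and at 49.0, 24.3, 35.4, 22.3 and 35.5 CPM in the controls. CMPK2, 5585 bases away, had the same 2 libraries on top, at 78.7 and 36.5 CPM, and vehicle control 1 next at 23.9 CPM.

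The 4 transcription factors ranged from 1.06 to 4.43 log2 units above the median in multidose 5. IRF7, which amplifies interferon production, was at 261.6 CPM in multidose 5 and at 6.14 to 13.6 CPM in the other 6 multidose libraries. IRF7 was at 20.1, 8.33, 9.04, 12.1 and 11.4 CPM in the single dose group and at 23.4, 12.1, 12.7, 13.9 and 17.01 CPM in the controls. Multidose 5 was 21.6-fold above the median, while single dose 1 was 1.66-fold above it and below vehicle control 1. IRF9, the DNA-binding partner of STAT2, was at 183.2 CPM in multidose 5 and 24.4 to 56.4 CPM in the other 16. STAT2 was at 92.7 CPM in multidose 5 and 26.8 to 35.7 CPM in the other 6 multidose libraries. It was at 44.4, 32.7, 32.4, 33.5 and 35.5 CPM in the single dose group and at 42.6, 30.9, 46.0, 32.2 and 34.4 CPM in the controls. Outside multidose 5 the groups overlapped, and STAT2 had the smallest spread of the 31 genes among the other 16 libraries (SD 0.22 on the log2 scale). IRF1, which answers to interferon gamma as well, was at 48.5 CPM in multidose 5 and 17.1 to 24.3 CPM in the other 6 multidose libraries. IRF1 was at 20.8, 34.1, 26.2, 28.5 and 23.2 CPM in single dose 1 to 5 and at 40.1, 22.5, 25.6, 20.3 and 32.7 CPM in the controls. IRF1 was the 1 member for which single dose 1 lay below the median, at place 11 of the 16 libraries.

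The RNA sensors were led by RIGI, which recognises the ends of viral RNA (chromosome 10, 33891720 to 33976151). RIGI was at 412.4 CPM in multidose 5 and 13.1 to 34.1 CPM in the other 6 multidose libraries. It was at 47.7, 15.04, 25.3, 28.8 and 20.2 CPM in the single dose group and at 29.2, 23.9, 34.8, 28.6 and 18.9 CPM in the controls. The related helicases DHX58 and IFIH1 were 3.38 and 1.90 log2 units above the median in multidose 5, and EIF2AK2, the RNA-dependent kinase that halts translation, 1.82.

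Among the other induced genes, IFI6, a mitochondrial and endoplasmic reticulum protein, was at 2174 CPM in multidose 5 and 64.2 to 138.1 CPM in the other 6 multidose libraries. IFI6 was at 275.7, 56.7, 73.6, 69.7 and 62.8 CPM in the single dose group and at 144.0, 86.3, 79.3, 426.8 and 135.2 CPM in the controls. The library next to multidose 5 was here vehicle control 4 and not single dose 1. IFI44L was at 546.2 CPM in multidose 5, and the highest of the others was single dose 1 at 83.2 CPM. Its neighbour IFI44 was at 56.2 CPM in multidose 5 and 59.0 CPM in single dose 1, the 1 gene for which single dose 1 came first. BST2, which tethers budding virus to the cell surface, was at 109.2 CPM in multidose 5 and 58.0 CPM in single dose 1, with the other 4 single dose libraries at 33.5, 25.1, 19.5 and 16.1 CPM. The other 6 multidose libraries held 18.5 to 30.3 CPM of BST2 and the controls 33.9, 21.4, 20.9, 20.4 and 36.1 CPM, so the groups overlapped apart from the high libraries. PARP9, DTX3L, PARP14 and ZNFX1, which act in ADP-ribosylation, ubiquitination and RNA sensing, were 1.40 to 1.91 log2 units above the median in multidose 5. PARP14 was at 49.7 CPM in multidose 5 and 14.6 to 26.5 CPM in the other 6 multidose libraries. It was at 45.2, 16.9, 18.9, 14.7 and 18.8 CPM in the single dose group and at 28.7, 17.2, 24.5, 16.2 and 22.5 CPM in the controls, so multidose 5 and single dose 1 were nearly level.

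**Figure D2:**
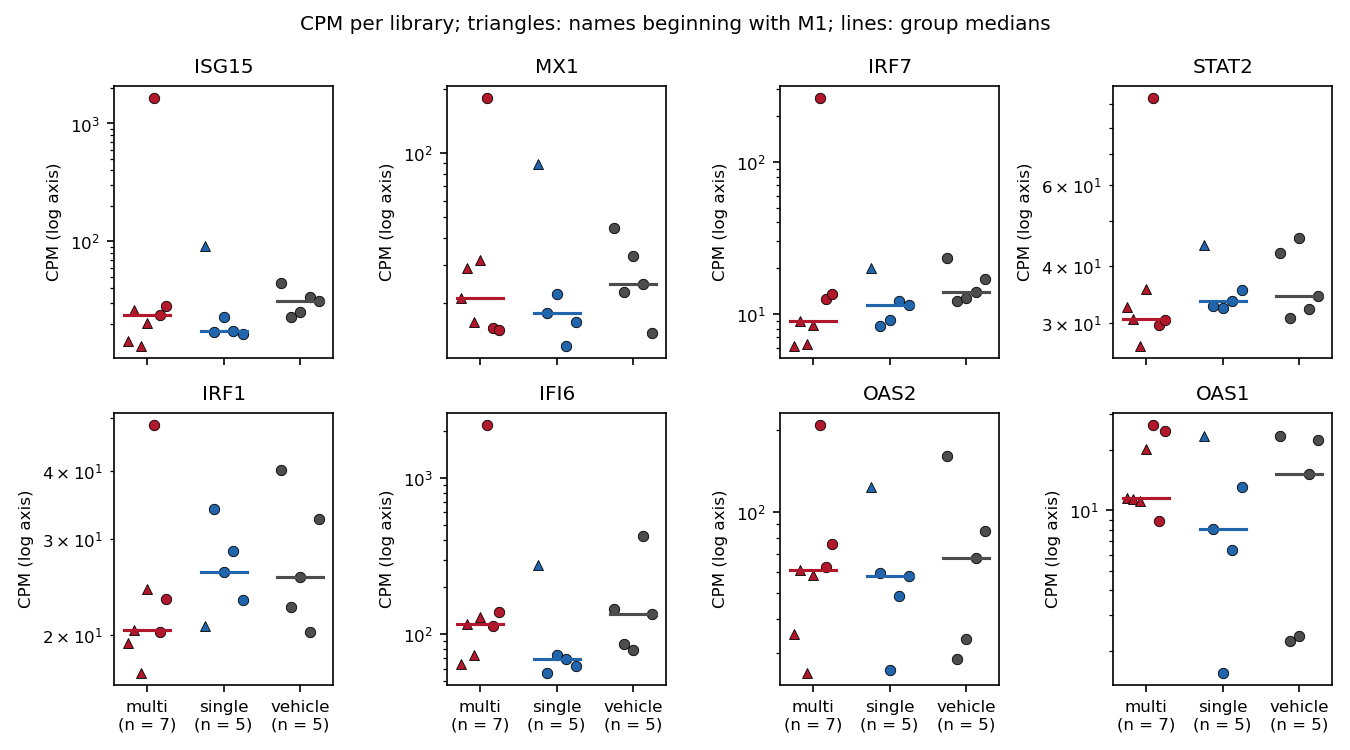
CPM on a log axis for 8 genes in each library, by group, where triangles are libraries whose names begin with M1 and lines are group medians. The top multidose point is multidose 5 in every panel, the single dose triangle is single dose 1, and OAS1 has 3 libraries at 1.56 to 2.37 CPM far below the rest.

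The oligoadenylate synthetases make the messenger that activates RNase L. OAS1 did not follow the other genes. It was at 26.6 CPM in multidose 5, close to 24.9 CPM in multidose 7, and 8.83 to 20.1 CPM in the other 5 multidose libraries. In single dose 1 to 5 OAS1 was at 23.6, 8.06, 1.56, 6.34 and 13.0 CPM, and in the controls at 23.4, 2.25, 2.37, 15.2 and 22.4 CPM. Single dose 3 and vehicle control 2 and 3 thus held far less OAS1 than the other 14 libraries, whose lowest value was 6.34 CPM. These 3 libraries, with multidose 3 (25.4 CPM), were also the lowest for the adjacent OAS2, at 25.9, 28.5 and 33.8 CPM, while multidose 1 came next at 35.2 CPM. OAS1 had the largest spread of the 31 genes among the 16 libraries without multidose 5 (SD 1.27 on the log2 scale). OASL, a related protein without synthetase activity, had few reads: it was at 6.71 CPM in multidose 5, 1.24 in single dose 1 and at or below 0.671 CPM elsewhere. No OASL read was counted in multidose 1 and 3, which allows levels of up to 0.127 and 0.145 CPM (3 counts, counting error only).

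Single dose 1 was the second library with high interferon genes. With multidose 5 set aside, it was the highest of 16 libraries for 23 of the 31 genes, against 7.79% of all genes. It was at least 1 log2 unit above the median of the other 15 libraries for 19 of the 31 (4.1% of all genes), with a median of 1.16 log2 units over the 31. Since all 31 genes were at least 1 log2 unit above the median in multidose 5, the 19 could not fail to meet both conditions. Over all genes tested, 69 (0.434%) met both. The order of the genes differed between the animals. In single dose 1 the leading genes were OASL (2.60 log2 units), MX1 (2.08), RSAD2 (2.07), ISG15 (1.997) and MX2 (1.91). IRF7 and RIGI, among the first 6 in multidose 5, were 0.73 and 0.998 log2 units above the median in single dose 1. The transcription factors lay between -0.16 and 0.73 log2 units there, and the other 8 gene groups between 0.79 and 2.60.

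**Figure D3:**
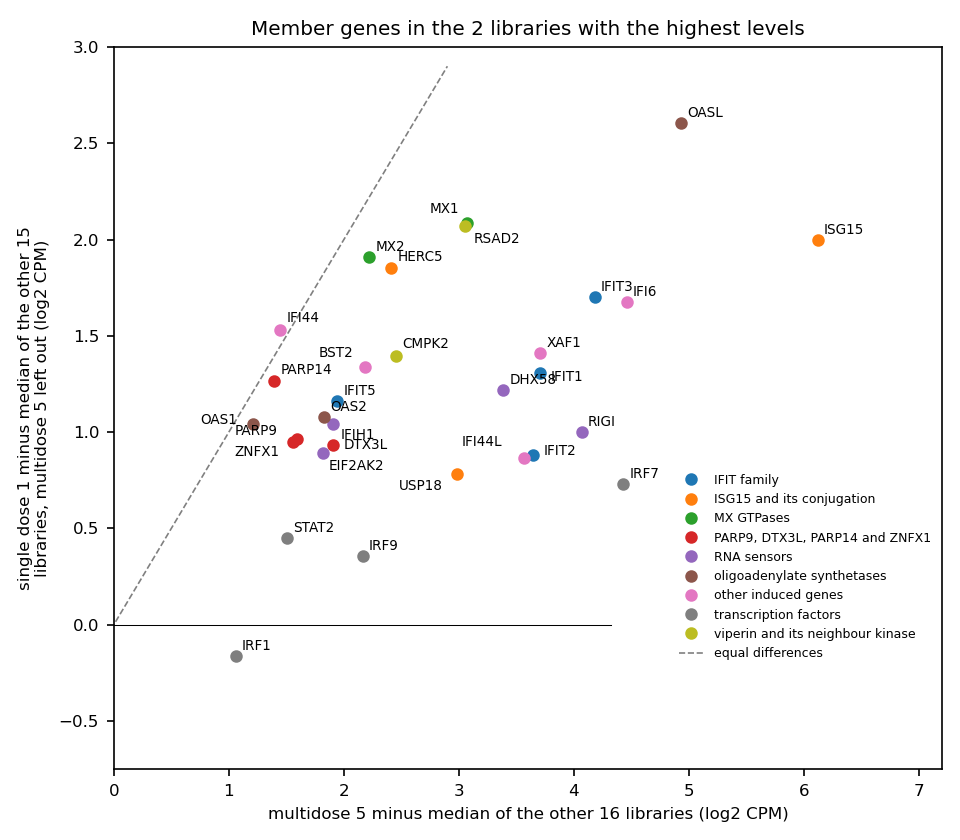
Each point is 1 of the 31 genes, coloured by its role: the x axis is multidose 5 and the y axis single dose 1, both in log2 CPM above the median of the other libraries. All genes but IFI44 lie to the right of the dashed line of equal differences, and the 4 lowest points on the y axis are the transcription factors, with IRF1 below 0.

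A smaller elevation was seen in vehicle control 1. With multidose 5 set aside it was among the top 3 of 16 libraries for 29 of the 31 genes. The share of all genes for that count is not given here. It was the highest for 4 of the 31 (12.9%, against 8.4% of all genes). Its median difference was 0.68 log2 units, and 6 genes were 1 log2 unit or more above the median (4.04% of all genes). Multidose 3 was at the other end, the lowest of 16 for 17 of the 31 genes (7.13% of all genes), with a median of -0.53 log2 units. It was also the shallowest library, at 21754800 counts, and the part of depth in its position was not tested. The other 13 libraries had medians between -0.36 (single dose 4) and 0.27 (vehicle control 5). The spread between animals was wide: the median SD on the log2 scale over the 17 libraries was 0.81 for the 31 genes and 0.35 for all genes, and without multidose 5 it was 0.48 and 0.34.

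The comparison of repeated doses with vehicle asked whether interferon genes differ with the dosing plan, and its direction depended on multidose 5. With all 17 libraries, 30 of the 31 genes had a higher mean in the multidose group (median log2 fold change 0.55), and without multidose 5, 29 of 31 had a lower one (median -0.23). No gene passed in either fit by edgeR's quasi-likelihood test with Benjamini-Hochberg adjustment over all genes (0 of the 31, and 0% of all 15884 genes). At an unadjusted p under 0.05 stood 1 of the 31 with all libraries (ISG15) and 12.6% of all genes. ISG15 was higher by 2.99 (SE 1.26, adjusted p = 0.384 by edgeR) with multidose 5 and at -0.59 without it (SE 0.40, edgeR adjusted p = 0.458). RIGI went from 1.54 (SE 0.78) to -0.24 (SE 0.27) and IFIT1 from 1.23 (SE 0.68) to -0.19 (SE 0.26). The SE of the 31 genes, with a median of 0.51, dropped to 0.28 without the library, and was 0.2 for all genes. DESeq2 called 8 genes and limma-voom 0, with 0 of the 31 by either.

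Without multidose 5, the 5 genes with the smallest p for multidose against control were IRF9, IRF7, IRF1, OASL and STAT2. IRF9 had a log2 fold change of -0.46 (SE 0.15), IRF7 of -0.75 (SE 0.26), IRF1 of -0.43 (SE 0.17), OASL of -1.71 (SE 0.74) and STAT2 of -0.26 (SE 0.12). These 5 of 31 had an unadjusted p under 0.05, a share close to the 16.2% of all genes in that fit, and their adjusted p was 0.253 to 0.302 by edgeR. IRF9 was at 24.4 to 44.2 CPM in the 6 multidose libraries and 39.1 to 56.4 CPM in the controls. IRF7 was at 6.14 to 13.6 CPM against 12.1 to 23.4 CPM. The groups overlapped for each of the 31 genes. All 6 multidose libraries lay below all 5 controls for 0 of the 31 and for 0.397% of all genes. At so small a share, 0 of 31 does not set these genes apart from the rest.

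For single dose against vehicle no gene passed by edgeR (0 of the 31, 0% of all genes), and at an unadjusted p under 0.05 stood 0 of the 31 and 5.26% of all genes. DESeq2 called 10 genes and limma-voom 0, with 0 of the 31 by either. The median log2 fold change was 0.01, with 18 genes higher and 13 lower in the single dose group. Without multidose 5 there were again 0 of the 31 at an unadjusted p under 0.05 (6.29% of all genes). Without single dose 1, the median was -0.40 and 31 of 31 were lower, with 0 of them at an unadjusted p under 0.05 in that fit (3.13% of all genes). Setting single dose 1 aside, the other 4 single dose libraries lay below all 5 controls for ISG15, OASL, IRF7 and IFI6, 4 of the 31 genes, against 0.63% of all genes. The gaps were narrow for 3 of the 4. The highest single dose library and the lowest control were at 22.86 and 22.92 CPM for ISG15, at 12.09 and 12.11 CPM for IRF7, and at 0.186 and 0.204 CPM for OASL, which is 9 against 10 counts. For IFI6 they were at 73.6 and 79.3 CPM.

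Multidose against single dose, the comparison of the dosing plans, again turned with multidose 5. The median log2 fold change was 0.49 with it (30 of 31 genes higher in the multidose group). Without it, but with single dose 1 kept, the median was -0.22 (30 of 31 lower). Within the libraries with M8 or M9 names and without multidose 5 it was 0.21 (25 of 31 higher), with 0 of the 31 at an unadjusted p under 0.05. That set also lacks single dose 1 and keeps only multidose 6 and 7 of the multidose group. No fit of this comparison over all library names left out both high libraries. With both set aside, mean CPM was higher in the multidose group for ISG15 (20.97 against 18.45), MX1, IFIT1, RSAD2, OAS1, RIGI, BST2 and PARP14. It was lower for IRF7, STAT2 and IRF1 (20.81 against 28), and these means were not tested. Neither with all libraries nor without multidose 5 did any gene pass by edgeR (0 of the 31, 0% of all genes). DESeq2 and limma-voom called 0 genes. At an unadjusted p under 0.05 stood 2 of the 31 with all libraries (ISG15 and IRF7) and 2.11% of all genes. ISG15 was higher by 2.93 (SE 1.26, adjusted p = 1 by edgeR) and IRF7 by 1.91 (SE 0.90). Without multidose 5 the values were -0.65 (SE 0.41) for ISG15 and -0.37 (SE 0.26) for IRF7, and 0 of the 31 had an unadjusted p under 0.05 (2.78% of all genes). Leaving out single dose 1 instead raised the median to 0.99. OAS1 had a positive value in both fits, 0.65 (SE 0.62) with and 0.50 (SE 0.63) without the library. The 3 dosing comparisons share libraries and are not independent of each other.

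**Figure D4:**
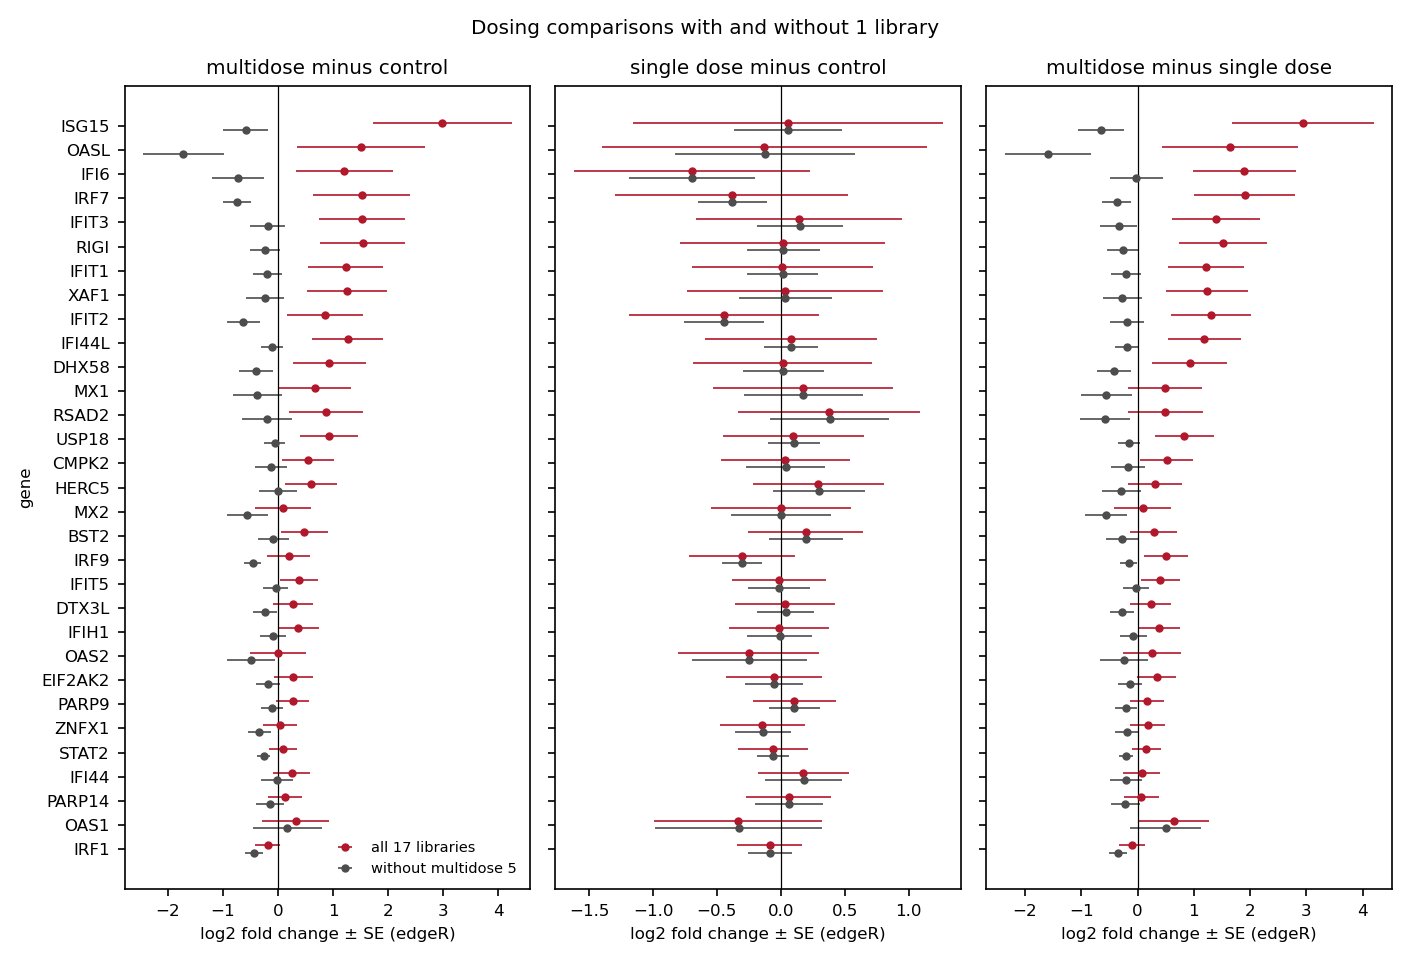
Log2 fold change with its SE from edgeR for each of the 31 genes in the 3 dosing comparisons, with all 17 libraries (red) and without multidose 5 (grey). In the panels with the multidose group the red points lie mostly right of 0 (medians 0.55 and 0.49) and the grey points mostly left (-0.23 and -0.22), and the SE is shorter without the library.

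Since all M1 libraries but one are multidose and no control is among them, the dosing comparisons were repeated within the 12 libraries with M8 or M9 names. This set also leaves out single dose 1, whose name begins with M1. With multidose 5 kept, the multidose group then had 3 animals, and 17 of the 31 genes stood at an unadjusted p under 0.05 against control, all higher (3.66% of all genes), with an adjusted p of 1 for ISG15 by edgeR. Against single dose, 27 of the 31 did, all higher (2.58% of all genes). Without multidose 5 the multidose group had 2 animals, and 1 of the 31 (MX1, log2 fold change -0.89, SE 0.36) stood at an unadjusted p under 0.05 against control (1.65% of all genes). In that same set, 19 of the 31 genes were lower in single dose than in control at an unadjusted p under 0.05 (4.26% of all genes), with a median of -0.41. With multidose 5 kept, a library in neither of these groups, the median was also -0.41 and 0 of the 31 stood at an unadjusted p under 0.05 (3.54% of all genes). Without multidose 5, ISG15 had the smallest p of the 31, at -0.79 (SE 0.19) with an adjusted p of 0.994 by edgeR. No gene passed the adjusted threshold in any of these fits.

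The comparison by library name, with the dosing group in the model, showed how the interferon genes depend on 2 animals, 1 on each side. With all 17 libraries, 2220 genes passed by edgeR (14% of those tested) and 0 of the 31 did. At an unadjusted p under 0.05 stood 1 of the 31 (IRF1 at -0.54, SE 0.22, edgeR adjusted p = 0.111) and 29.9% of all genes. DESeq2 called 3003 genes and 0 of the 31, of which 23 had no p because of an outlying count. Limma-voom, which gives less weight to libraries that deviate, called 4525 genes and 2 of the 31, MX1 and IFI44, both higher under M1 names (14.3% of all genes were higher).

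Without multidose 5, whose name begins with M8, 1450 genes passed (9.13%), and 6 of the 31 were higher under M1 names (4.2% of all genes) and 0 were lower, and the median log2 fold change was 0.54. MX1 rose by 1.39 (SE 0.32, adjusted p = 0.0182 by edgeR) and HERC5 by 0.99 (SE 0.27, adjusted p = 0.0320 by edgeR). The others were IFI44 (0.80), IFIT1 (0.77), PARP14 (0.72) and IFIT5 (0.70). Without single dose 1, whose name begins with M1, 858 genes passed (5.33%), and 9 of the 31 were lower under M1 names (3.15% of all genes) and 0 were higher, with a median of -1.35. These were OASL (-5.35), ISG15 (-4.91), IRF7 (-3.66), IFI6 (-3.06), RIGI (-2.93), IFIT3 (-2.63), DHX58 (-2.43), USP18 (-1.88) and IRF9 (-1.39). Each of these 2 fits keeps 1 of the 2 high libraries, which stand on opposite sides of the name split. The 2 sets passed in opposite directions, so their lack of a shared gene is no separate result. The values of IFIT1 had opposite signs, 0.77 and -2.17. With both libraries left out, 100 genes passed (0.622%) and 0 of the 31, 2 of the 31 had an unadjusted p under 0.05 (IRF7 and OASL, 17.5% of all genes), and the median was -0.03 with 13 genes above and 18 below 0. In that fit IRF7 stood at -0.81 (SE 0.25, edgeR adjusted p = 0.117).

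**Figure D5:**
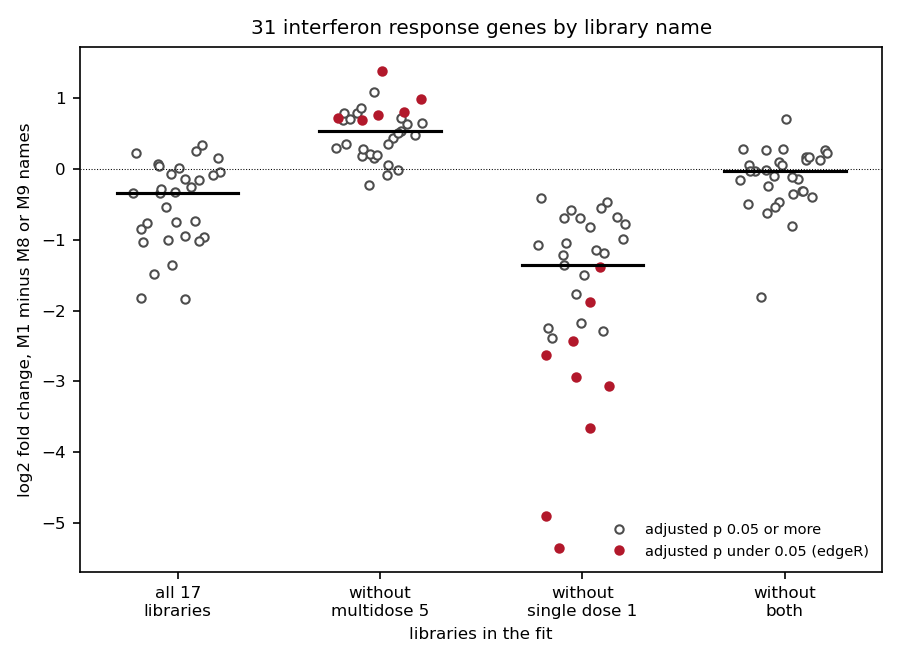
Log2 fold change of each of the 31 genes between libraries with M1 names and those with M8 or M9 names, with the dosing group in the model, for 4 sets of libraries; filled points passed the adjusted threshold by edgeR and bars are medians. The medians are -0.33 with all libraries, 0.54 without multidose 5, -1.35 without single dose 1 and -0.03 without both, and 0, 6, 9 and 0 genes passed.

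Other genes of the pathway were read in the same libraries. IFNB1, the gene of interferon beta, had no count in any library, which allows up to 0.0446 CPM in the deepest and 0.145 CPM in the shallowest (3 counts, counting error only). IFNG, the gene of interferon gamma, was at 0.603 CPM in multidose 5 and at 0 to 0.491 CPM in the others. The receptor and its kinases were low in multidose 5: IFNAR1 was at 27.9 CPM against 46.5 to 81.3 CPM, JAK1 at 82.3 against 94.6 to 145.4 CPM and TYK2 at 22.6 against 28.6 to 46.8 CPM, each the lowest of the 17. Of 19 tested genes of interferons, receptors and signalling, 4 were at least 1 log2 unit above the median in multidose 5 and 0 in single dose 1. Of 13 genes that sense nucleic acid upstream of interferon, 2 were in multidose 5, CGAS (1.31 log2 units) and ZBP1 (1.91), and ZBP1 (1.63) alone was in single dose 1.

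The 2 remaining lists gave different values in the high libraries, a difference that was not tested. Of 26 tested interferon-induced genes beyond the 31, multidose 5 was the highest of 17 for 22 and single dose 1 the highest of the 16 others for 14, with median differences of 1.40 and 0.64 log2 units. HERC6, a relative of HERC5, was at 303.8 CPM in multidose 5 and 85.4 CPM in single dose 1, against a median of 45.5 CPM over the 16 libraries other than multidose 5. Of 10 tested genes listed as interferon gamma targets, multidose 5 was the highest for 6 with a median of 1.99. Single dose 1 was the highest for 0 of them, with a median of -0.31. In multidose 5 GBP5, WARS1, CIITA and CXCL9 lay 0.30 to 0.61 log2 units above the median, and the other 6 at least 1 log2 unit above it. CXCL10, a chemokine for T cells, was at 539.1 CPM in multidose 5 and 17.4 CPM in single dose 1, and vehicle control 4 came second at 227.3 CPM. TAP1, the peptide transporter of antigen presentation, was at 243.2 CPM in multidose 5, 44.4 CPM in single dose 1 and 26.2 to 69.6 CPM in the others. In the 3 dosing comparisons 0 genes of these 4 lists passed by edgeR, with or without multidose 5. By library name without multidose 5, 4 of the 26 further interferon-induced genes were higher and 3 of the 10 interferon gamma targets were lower under M1 names, among 668 higher and 782 lower of 15886 genes. With all libraries, 0 of the 26 were higher and 1 was lower, and 4 of the 10 were lower, among 940 higher and 1280 lower of 15884 genes.

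Markers of other cell types differed between these libraries too, and their part in the interferon values was not tested. The summed level of 9 macrophage markers was 610.1 CPM in multidose 5 and 425.5 CPM in single dose 1, within the range of the controls (294.6 to 698.3 CPM). The other multidose libraries held 317.4 to 509.1 and the other single dose libraries 319.5 to 521.9 CPM, so multidose 5 lay above all other dosed libraries. Of these 9 markers, C1QA, C1QB and C1QC were the highest of the 17 libraries in multidose 5, by 0.80, 0.96 and 0.97 log2 units above the median. AIF1 lay 0.57 above the median, CD68, CD163 and CD14 0.15 to 0.20 above it, and CSF1R and MRC1 lay at -0.12 and -0.35. The summed level of 9 T and NK cell markers (of 10 listed) was 87.2 CPM in multidose 5 and 33.5 CPM in single dose 1. The controls held 27.0 to 102.0 CPM, the other multidose libraries 22.5 to 43.4 and the other single dose libraries 46.4 to 65.4 CPM. In multidose 5, GZMB, CD2, CD4 and GNLY lay 1.08 to 1.90 log2 units above the median. NKG7, PRF1 and CD8A lay 0.09 to 0.63 above it, and CD3D and CD3E lay at -0.09 and -0.17. Of 7 markers of plasmacytoid dendritic cells, a main source of interferon, 4 were in the table. Their sum was 32.5 CPM in multidose 5, 40.95 CPM in single dose 1 and 31.04 to 59.8 CPM in the others. In multidose 5 TCF4 held 15.5 CPM of this sum and lay at -0.95 log2 units from the median. IRF8, SPIB and GZMB lay 0.50, 0.94 and 1.90 log2 units above it. Of 7 neutrophil markers 5 were in the table, and CSF3R alone passed the filter on low counts, at 1.62 CPM in multidose 5 and 0.627 to 6.75 CPM in the others. S100A12 had 9 counts in multidose 5 (0.247 CPM, against a median of 0.091 CPM) and S100A8 had 0, while MPO and ELANE had 1 and 4 counts over all 17 libraries and 0 in multidose 5. The sums for 7 endothelial and 6 mural cell markers were the lowest of the 17 libraries in multidose 5, at 743.9 and 379.9 CPM. The 7 endothelial markers lay at -0.99 (TEK) to -0.24 (EMCN) log2 units from the median. Of the mural markers RGS5 lay at -1.19, while PDGFRB, ACTA2, MYH11, NOTCH3 and CSPG4 lay between -0.09 and 0.18. Of 6 erythroid and platelet markers HBB and ALAS2 passed the filter, and their sum was highest in single dose 1, at 635.5 CPM against at most 500.7 CPM elsewhere, of which HBB held 627.0 CPM. The sum of 7 fibroblast markers was 7548 CPM in single dose 1, above the other single dose libraries (3472 to 6285 CPM) and the controls (3503 to 6439 CPM), and within the range of the multidose libraries (2790 to 8123 CPM). COL3A1 and DCN lay 1.07 and 0.92 log2 units above the median in single dose 1. By library name 3 of the 7 fibroblast markers were higher under M1 names, both with all libraries and without multidose 5. Over all genes, 940 of 15884 and 668 of 15886 were higher in these fits. In both fits 2 of the 9 T and NK cell markers and 1 of 2 tested atrial cardiomyocyte markers were lower. Over all genes, 1280 were lower with all libraries, and 1450 passed in either direction without multidose 5. With all libraries only, 1 of the 7 endothelial markers was higher. In multidose 5 the fibroblast sum was 4354 CPM. Ventricular cardiomyocyte markers stood at 82690 CPM in multidose 5 and 69840 CPM in single dose 1, inside the range of the other libraries.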

How the data were processed

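The authors deposited raw counts per gene for the 17 libraries, made from total RNA isolated with TRIzol and sequenced on an Illumina instrument, per the labels' protocols. Per the submitters' processing notes, the build was Sscrofa11.1 and the tools included HISAT2 2.1.0 and Subread 1.6.2, besides Trimmomatic 0.33, SAMtools 1.7 and FastQC 0.11.7. Annotation release and strand setting were not given in the sources used here. The tests used edgeR 4.0.16 under R 4.3.3 (filterByExpr by group with a minimum count of 10, TMM factors, robust quasi-likelihood fit, two-sided tests). The Benjamini-Hochberg adjustment ran over all genes, with a threshold of 0.05. The dosing comparisons come from 1 model with a coefficient per group over the 17 libraries, and the name comparison adds a term for M1 names. A prior count of 2 was added for log2 CPM. Each SE follows from a fold change and its F statistic. A library's log2 difference is its log2 CPM minus the median of the other libraries, where multidose 5 never enters the median. DESeq2 1.42.0 and limma-voom (limma 3.58.1) with quality weights were alternatives, next to other scalings, filters and sets of libraries. The fits were tested on simulated counts. Values in every library are given for a representative of each role (MX1, ISG15, IFIT1, RSAD2, OAS1, IRF7, STAT2, IRF1, RIGI, BST2 and PARP14, with ranges for the multidose group), and named as well are the 3 members with the smallest p in each comparison and those that passed. The 31 genes, the other lists and the split by library name were chosen with earlier results of these data known. Since replicates are animals, p-values measure the spread between animals. Counts per library ranged from 268 to 59591 for ISG15, and only genes with few counts, such as OASL, are limited by counting error. A promoter motif search was planned but could not be run, since the reference tables used here hold no sequences. A result for 1 further pathway gene is not reported here.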

Additional observations from a re-analysis of the deposited data

Results flagged for a closer look

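In each group the highest and lowest library of every gene was compared with the rest by Dixon's gap criterion, which chance meets in about 1 of 20 groups. Of 93 combinations of gene and group, 45 met it, and the distant library was multidose 5 in 28 and single dose 1 in 17. In every case it lay above the others, and no gene had a distant control library. The genes were measured in the same animals, so the combinations are not independent of each other. The rate of 1 in 20 therefore does not apply to their count, and the share over all genes is not given here. Values are log2 CPM.

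In multidose 5 the effectors stood at 10.67 for ISG15, 6.15 for USP18, 5.46 for HERC5, 7.49 for MX1, 7.19 for MX2, 7.98 for RSAD2, 6.30 for CMPK2 and 2.76 for OASL. The IFIT genes stood at 8.87 (IFIT1), 6.99 (IFIT2), 8.19 (IFIT3) and 6.53 (IFIT5), and the transcription factors at 6.53 (STAT2), 5.6 (IRF1), 8.03 (IRF7) and 7.52 (IRF9). The RNA sensors stood at 8.69 (RIGI), 5.98 (IFIH1), 6.09 (DHX58) and 6.53 (EIF2AK2). The other induced genes stood at 11.09 (IFI6), 5.81 (IFI44), 9.09 (IFI44L), 7.26 (XAF1) and 6.77 (BST2), and the last group at 5.20 (PARP9), 4.996 (DTX3L) and 7.54 (ZNFX1). The 3 genes for which multidose 5 was not so distant in its group were OAS1, OAS2 and PARP14.

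In single dose 1 the distant values were 6.52 for ISG15, 4.90 for HERC5, 6.47 for MX1, 6.82 for MX2, 6.45 for IFIT1, 5.68 for IFIT3, 5.74 for IFIT5, 0.37 for OASL and 6.99 for RSAD2. They were 5.19 for CMPK2, 5.48 for STAT2, 8.11 for IFI6, 5.88 for IFI44, 3.90 for DHX58, 5.57 for EIF2AK2, 4.54 for PARP9 and 5.50 for PARP14. Among the 4 transcription factors only STAT2 is in this set.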

How the results depend on the processing

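Other scalings and filters on low counts left 0 of the interferon genes past the threshold in each of the 4 comparisons. Genes called for multidose against control numbered 8 with DESeq2, and for single dose against control 10, against 0 by edgeR. DESeq2 replaced outlying counts of 44 genes, 15 of the interferon genes among them. Its medians over all 31 interferon genes were -0.05, 0.02 and -0.03 in the 3 dosing comparisons. These medians thus mix genes with replaced counts and genes whose counts were kept. By library name the genes called numbered 4525 with limma-voom, 3783 without the group term, 712 in the multidose libraries alone, 1450 without multidose 5, and 2220 with all libraries. The interferon genes among them were 2 with limma-voom and 6 without multidose 5. In fits added after seeing the data, 3977 genes and 2 interferon genes were called with neither group term nor multidose 5, 100 genes without multidose 5 and single dose 1, and 250 in the multidose libraries without multidose 5. IFIT1 by name changed from -0.75 to 0.77 without multidose 5.

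Over the 17 fits that leave out 1 library each, 0 to 1 genes were called for single dose against control and for multidose against single dose, and 858 to 2745 by name, with 0 to 9 interferon genes (9 without single dose 1). The IFIT1 value by name ran from -2.17 to 0.77. The interferon median ran from -0.23 (without multidose 5) to 0.71 for multidose against control, and from 0.42 to 0.71 in the fits that keep multidose 5. Of the 15 named genes, 13 changed sign for multidose against control and 13 for multidose against single dose without multidose 5, none of them past the threshold. The causes were not tested.

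With the replicate number as a block, 1, 0 and 0 genes were called in the dosing comparisons and 11 by name, and 0 interferon genes. The numbers do not pair the animals: of 15 same-numbered pairs 4 had a correlation above 0.1 (range -0.22 to 0.41).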

Other observations

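Outside the 31 genes and the pathway lists, multidose 5 held further high values, given here as values only. In all, 76 genes were at least 1 log2 unit above the highest other library, of which 16 are among the 31, 13 stand on the pathway lists, 28 others have a symbol and 19 have none in the table. ISG12(A), a small interferon-induced mitochondrial protein gene, was at 5229 CPM in multidose 5 against a median of 150.9 and at most 925.5 CPM elsewhere. FCGR1A, the high-affinity antibody receptor of macrophages, was at 37.0 CPM against at most 8.14 CPM, the second value being that of single dose 1. Genes of antigen presentation, named after their values were seen like the others here, stood in the same set: B2M was at 686.9 CPM against at most 303.4, PSMB10 at 76.2 against at most 29.9, PSME2 at 130.2 against at most 55.7 and TAPBP at 145.5 against at most 71.8 CPM. In single dose 1 these 4 were at 260.0, 27.7, 55.7 and 37.4 CPM, with TAPBP 0.28 log2 units below the median. C4A, a complement gene, was at 64.6 CPM in multidose 5 against at most 16.1 CPM, and NPTX1, a neuronal pentraxin gene, at 18.0 against at most 8.67 CPM.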
